A study of Mus musculus with 12 samples.

Results

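The genes described here are the TNF superfamily of ligands and receptors and the intracellular proteins that carry their signals, in 3T3-L1 cells. Membership was set by symbol. It took in every gene whose symbol starts with Tnfsf or Tnfrsf and a digit, apart from Tnfrsf1a and Tnfrsf1b. Also included were Tnf, Lta, Ltb, Ltbr, Fas, Fasl, Cd40, Cd27, Traf1, Traf2, Birc2, Birc3, Cflar, and Casp8. This rule found 44 of the 56941 genes in the count table. By role they are 15 ligands, 4 receptors with a death domain, 4 decoy receptors, 14 other receptors, 6 intracellular proteins, and 1 antisense transcript, Tnfsf13os.

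RNA was sequenced from 3T3-L1, a mouse embryonic fibroblast line, in 4 conditions with 3 libraries each, 24 hours after cytokines were added. Control cells received vehicle. IL-4/13 cells received IL-4 and IL-13, each at 50 ng/mL, and Inf cells received IL-17A, TNF-α, and IL-1β, at 50, 20, and 0.5 ng/mL in that order, while IL-4/13 + Inf cells received all 5 cytokines. All cells were wild type, all libraries carry the same batch label, and a single line stands in for fibroblasts. The study asked what type 2 cytokines add to fibroblasts that are already in an inflammatory setting. The labels do not say whether the libraries of a condition came from separate cultures, so the p-values measure only the spread between these libraries, which may be technical.

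TNF superfamily ligands are made as trimers on the cell surface or shed from it, and each binds 1 or a few receptors. Receptors with a death domain, such as Fas, recruit adaptors and caspase-8 and can start apoptosis, whereas most other receptors bind TRAF proteins and signal to NF-κB. The ubiquitin ligases cIAP1 and cIAP2, encoded by Birc2 and Birc3, and the caspase-8 inhibitor c-FLIP, encoded by Cflar, hold TNF receptor signalling on the side of survival. TNF itself is a strong activator of fibroblasts, and here it was 1 of the 3 cytokines of the Inf mixture. TNF added as a protein leaves no reads of its own, so counts of Tnf come from the cells.

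Total counts per library ranged from 13446005 to 20775769. CPM stands for counts per 1000000, taken over the tested genes of a library after scaling by edgeR's TMM factor. A gene was called where edgeR's quasi-likelihood test gave an adjusted p below 0.05 over 14810 tested genes and a log2 fold change beyond 0.25. Of the 44 genes, 23 passed the filter on low counts and were tested, and 21 did not pass. Inf replicate 3 stood apart from the other Inf libraries, and a chi-square test of their counts gave 8.53 and 8.15 per degree of freedom against 2.27 to 4.64 for every other pair within a condition. No pair of libraries was close enough to be the same library deposited again. All 10 fibroblast markers examined were tested, with a summed level of 16670 to 19430 CPM in control, 14330 to 15120 in IL-4/13, 13830 to 15260 in Inf, and 11770 to 12140 in IL-4/13 + Inf. Single fibroblast markers went both ways with Inf. From control to Inf, mean Dcn went from 103 to 1756 CPM, Lum from 2.25 to 22.4, Pdgfra from 196.1 to 384.5, and Pdgfrb from 269 to 481. Col1a1, Col1a2, Col3a1, Thy1, Vim, and Fn1 were lower in mean with Inf. Of 6 T cell markers, 5 had no read in any library and Cd4 had at most 2 counts. Of 8 macrophage markers, 3 were tested, and the summed level of all 8 was 4.28 to 5.49 CPM in control, 4.15 to 5.88 in IL-4/13, 5.34 to 6.51 in Inf, and 5.31 to 6.63 in IL-4/13 + Inf. Mrc1 stood at 0.18 CPM in control, 2.11 in Inf, and 3.03 in IL-4/13 + Inf, Csf1r at 3.54, 2.64, and 2.05, and Cd68 at 1.01, 1.08, and 0.96, while the defining genes Adgre1, Itgam, and Cx3cr1 had at most 1 count in a library and the pan-leukocyte gene Ptprc at most 5. The adipocyte marker Fabp4 stood at 11.3 CPM in control and 30.1 in Inf, with at most 1 count of Adipoq in a library, and the endothelial marker Cdh5 at 0.12 and 0.85. The part of these markers in the results below was not tested. RNA from a bulk culture cannot separate fewer cells that express a gene from less RNA of that gene in each cell.

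Of the 23 tested genes, 12 changed with Inf against control, 13 with IL-4/13 + Inf, and 1 with IL-4/13 alone. Inf raised 10 of the 23 tested genes, namely Fas, Traf1, Tnfrsf9, Tnfsf15, Birc3, Traf2, Tnfrsf23, Cflar, Birc2, and Tnfsf9, and lowered 2, Tnfrsf12a and Tnfrsf25. Over all tested genes, 31.6% were called in that comparison, 16.3% higher and 15.3% lower. Tnfsf15 and Tnfrsf9 passed the filter on low counts only through libraries with Inf, and Tnfrsf25 only through libraries without it, so these 3 were tested because of the groups in which they were high, and their place in the count is no separate support. IL-4/13 alone raised 1 gene, Fas, where 5.35% of all tested genes were called, 2.78% higher and 2.57% lower. IL-4/13 + Inf against control raised 12 and lowered 1, Tnfrsf25, where 24.9% of all tested genes were called, 13.4% higher and 11.5% lower. When IL-4/13 was added to Inf, 6 genes rose, namely Tnfrsf4, Traf1, Tnfrsf21, Tnfrsf22, Tnfrsf12a, and Tnfrsf23, and 1, Tnfrsf14, fell, where 14.6% of all tested genes were called, 7.55% higher and 7.00% lower. The median log2 fold change of the 23 genes was 0.15 with IL-4/13 alone, 0.34 with Inf, 0.42 with all 5 cytokines, and 0.09 for IL-4/13 + Inf against Inf. The median over all tested genes lay within 0.01 of 0 in each of these comparisons. The medians of the 23 genes include Tnfsf15, Tnfrsf9, and Tnfrsf25, so their contrast with all tested genes is no separate support. Several comparisons share their control or Inf libraries, so their counts are not independent of each other.

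**Figure D1:**
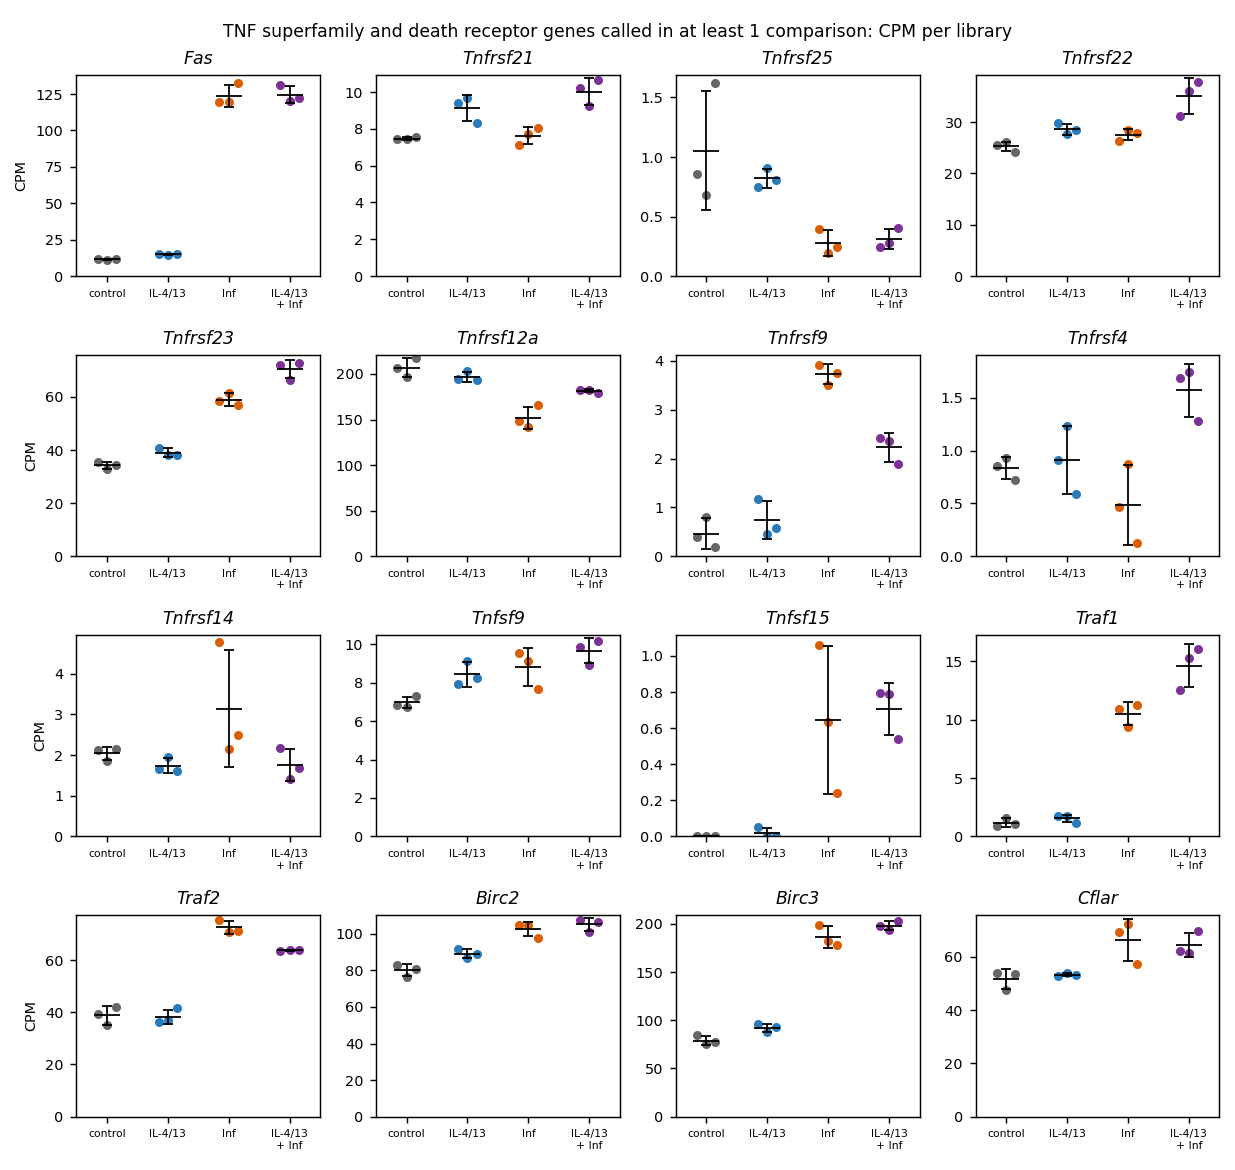
Level of the 16 genes that were called in at least 1 comparison, in CPM on a linear axis starting at 0, for each library (points) of the 4 conditions, with the mean (long bar) and SD (error bar, n = 3). Fas stood at 119 to 132 CPM in the libraries with Inf and at 11.1 to 15.2 CPM in those without it, whereas Tnfrsf12a was lowest with Inf and Tnfrsf4 was highest with IL-4/13 + Inf.

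Promoter sequence is shown for 3 receptor genes that were higher in every library with Inf than in any without. They were also picked because their promoters hold motifs of factors that inflammatory cytokines act on, so a match in each was given by the choice. Windows from 250 bases before to 50 bases after the annotated start were taken from RefSeq (GRCm38.p6), in which 35 of the 44 genes were matched with 40 windows. Capitals mark the NF-κB consensus and the AP-1 motif TGANTCA, both searched on both strands, and in none of the 3 stretches do the 2 kinds of motif overlap. The Tnfrsf9 stretch, chr4:150927946-150927975 on the plus strand, holds 2 overlapping NF-κB matches between 43 and 33 bases before the start, and an AP-1 match lies 15 to 9 bases before the start, outside the stretch. The Tnfrsf8 stretch, chr4:145315270-145315352 on the minus strand, holds an NF-κB match 168 to 159 bases and an AP-1 match 132 to 126 bases before the start. The Fas stretch, chr19:34290428-34290474 on the plus strand, holds an AP-1 match 211 to 205 bases before the start.
Tnfrsf9: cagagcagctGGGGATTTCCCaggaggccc
Tnfrsf8: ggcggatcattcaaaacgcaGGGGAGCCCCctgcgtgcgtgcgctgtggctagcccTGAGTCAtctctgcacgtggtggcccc
Fas: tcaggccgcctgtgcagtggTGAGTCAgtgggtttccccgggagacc

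Among the 40 windows, 3 held the NF-κB consensus (7.5%, in Ltb, Tnfrsf8, and Tnfrsf9), against 4.51% of all 32851 windows of the same length. The AP-1 motif stood in 7 windows of 6 genes (17.5%), namely Fas, Tnfrsf8, Tnfrsf9, Tnfsf13, Tnfsf13b, and Tnfsf14, against 7.81% of all windows. The STAT6 motif, TTC and GAA with 4 bases between them, which the IL-4 and IL-13 pathway uses, stood in 4 windows of 3 genes (10%), namely Lta, Ltbr, and Tnfsf13b, against 6.95% of all windows. Counted per gene rather than per window, 3, 6, and 3 of the 35 matched genes held the NF-κB, AP-1, and STAT6 motif. Over all genes these shares were 5.14%, 8.97%, and 8.01%. A match is only a description of these letters. Of the genes called higher with Inf, only Fas and Tnfrsf9 are among those with an NF-κB or AP-1 match, and 9 of the genes described had no window. Ltb, Tnfrsf8, Tnfsf13, Tnfsf13b, and Tnfsf14 also hold such a match and did not pass the filter. Whether the motifs play a part in the response to Inf was not tested. Of the genes with a STAT6 match, Lta and Ltbr were tested and neither was called in any comparison, and Tnfsf13b did not pass the filter.

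The ligands were at low levels. Of 15 ligand genes, 5 were tested, and in control the highest per length was Tnfsf12 at 7.81 CPM per kb of exon, followed by Tnfsf9 at 5.41 CPM per kb. Tnfsf15 encodes TL1A, the ligand of the death receptor encoded by Tnfrsf25. It had 0 counts in the 3 control libraries, 1, 0, and 0 counts in IL-4/13, 16, 13, and 4 counts in Inf, and 16, 14, and 8 counts in IL-4/13 + Inf. All 6 libraries with Inf lay above all 6 without it. Against a floor of 3 counts per control library, which covers counting error only, it was at least 3.61-fold higher with Inf and at least 3.95-fold higher with IL-4/13 + Inf. Adding IL-4/13 to Inf did not give a call for Tnfsf15, with a log2 fold change of 0.17 and a 95% interval of −0.84 to 1.17.

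Tnfsf9 encodes 4-1BB ligand, the partner of the receptor encoded by Tnfrsf9. Its level was 6.86, 6.76, and 7.32 CPM in control, 7.93, 9.14, and 8.23 in IL-4/13, 9.57, 9.16, and 7.70 in Inf, and 9.87, 8.94, and 10.2 in IL-4/13 + Inf. Every cytokine-treated library was above every control library. The log2 fold change against control was 0.47 ± 0.13 (SE) with IL-4/13 + Inf (adjusted p = 0.0040) and 0.34 ± 0.13 with Inf (adjusted p = 0.034). The call for Inf alone was lost in 4 of 7 other fits, by DESeq2 (adjusted p = 0.065), with scaling by library size only (0.050), with no filter (0.084), and where the libraries compared were fitted alone (0.058). It was also lost without control replicate 1 (0.080), control replicate 2 (0.084), Inf replicate 1 (0.12), or Inf replicate 2 (0.095). With IL-4/13 alone it was 0.27 ± 0.13, which did not pass the test (adjusted p = 0.23).

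The remaining tested ligands were called in no comparison with all 12 libraries. Tnfsf12, which encodes TWEAK, stood between 9.41 and 15.7 CPM over the 12 libraries, and 49% of the 50-base words of its longest transcript also occur in Tnfsfm13, an annotated readthrough transcript of Tnfsf12 and Tnfsf13, so its count is uncertain. Without IL-4/13 + Inf replicate 1, which was its lowest library of that condition, Tnfsf12 passed against control with a log2 fold change of 0.35 (adjusted p = 0.034). Lta, which encodes lymphotoxin-α, stood between 0.16 and 0.91 CPM, and Tnfsf10, which encodes TRAIL, between 0.065 and 0.88 CPM. For Tnfsf10 the 95% interval of the log2 fold change with Inf ran from −0.70 to 1.91, so that changes of this size were not detectable at this depth.

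The other 10 ligand genes did not pass the filter. Fasl, which encodes the ligand of Fas, had no read in any of the 12 libraries. Tnfsf4, which encodes OX40 ligand, and Tnfsf14, which encodes LIGHT, had 1 count each over all libraries. Tnf had 0 counts in the 6 libraries without Inf, 2, 3, and 1 counts in Inf, and 0, 1, and 0 counts in IL-4/13 + Inf, all at or under the floor of 3 counts. Ltb, which encodes the partner chain of lymphotoxin-α, had at most 2 counts in a library. Tnfsf8, Tnfsf11 (RANK ligand), and Tnfsf18 (GITR ligand) had at most 4, 5, and 6 counts. The B cell survival factors Tnfsf13 and Tnfsf13b had at most 12 and 13, and the antisense transcript Tnfsf13os had at most 8. In the longest transcript of Tnfsf13, 51.9% of the 50-base words also occur in the readthrough transcript Tnfsfm13, so its count is uncertain as well.

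Fas, the receptor that starts apoptosis when Fas ligand binds, was the clearest response among these genes. It stood at 11.5, 11.1, and 11.9 CPM in control, 15.2, 14.4, and 15.2 in IL-4/13, 119, 119, and 132 in Inf, and 131, 120, and 122 in IL-4/13 + Inf. The 6 libraries with Inf did not overlap the 6 without it, and the IL-4/13 libraries did not overlap the control libraries. Inf raised Fas 10.7-fold, which on the log2 scale is 3.42 ± 0.07 (SE, adjusted p = 7.2e-27), and IL-4/13 alone raised it by 0.38 ± 0.08 on the log2 scale (adjusted p = 0.0032). Both calls stayed with each of the 12 libraries left out in turn. None of the 50-base words of Fas occurs in another gene.

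Added to Inf, IL-4/13 gave no call for Fas, with a log2 fold change of 0.01 and a 95% interval of −0.10 to 0.12. The difference between the response to IL-4/13 with Inf and without it, tested as the interaction term, was −0.37 ± 0.10 on the log2 scale (adjusted p = 0.035). Over all tested genes, 3.11% were called in this test, 1.52% higher and 1.59% lower, and of the 23 genes 2 were, Tnfrsf12a higher and Fas lower. In CPM, IL-4/13 added 3.45 to the mean of Fas without Inf and 0.96 with Inf. The SD was 0.42 in control and 0.44 in IL-4/13, but 7.50 in Inf and 5.62 in IL-4/13 + Inf. The spread with Inf was thus larger than either addition, and whether the 2 additions differed in CPM was not tested. The call of the interaction was lost in 8 of the 12 fits that left out a library, among them the one without Inf replicate 3, where the term was −0.31 (adjusted p = 0.059). Over the 12 fits the term ranged from −0.40 to −0.31 and the adjusted p from 0.028 to 0.094. It held without IL-4/13 replicate 2, Inf replicate 1, Inf replicate 2, or IL-4/13 + Inf replicate 1.

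Tnfrsf25 encodes death receptor 3, and its level moved opposite to that of its ligand gene Tnfsf15. Each of the 2 genes passed the filter only through the libraries in which it was high, so this contrast is no separate support. It stood at 0.86, 0.68, and 1.62 CPM in control, 0.75, 0.91, and 0.81 in IL-4/13, 0.40, 0.19, and 0.24 in Inf, and 0.25, 0.28, and 0.40 in IL-4/13 + Inf. The libraries with Inf, at 4 to 6 counts each, all lay below those without it. The log2 fold change against control was −1.93 ± 0.48 with Inf (adjusted p = 0.0016) and −1.77 ± 0.47 with IL-4/13 + Inf (adjusted p = 0.0037). Control replicate 3 was the highest library, and without it these values were −1.49 (adjusted p = 0.032) and −1.32 (adjusted p = 0.063), so the second call was lost.

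Tnfrsf21 encodes death receptor 6. Its level was 7.43, 7.44, and 7.56 CPM in control, 9.43, 9.65, and 8.31 in IL-4/13, 7.11, 7.74, and 8.06 in Inf, and 10.2, 9.22, and 10.7 in IL-4/13 + Inf. The 6 libraries with IL-4/13 all stood above the 6 without it. Inf alone gave a log2 fold change of 0.03 ± 0.12, which did not pass the test (adjusted p = 0.86). Against Inf, IL-4/13 + Inf raised Tnfrsf21 by 0.39 ± 0.12 (adjusted p = 0.018), and against control by 0.42 ± 0.12 (adjusted p = 0.0067). The first call was lost without Inf replicate 1 (adjusted p = 0.068), IL-4/13 + Inf replicate 1 (0.063), or IL-4/13 + Inf replicate 3 (0.072). IL-4/13 alone gave 0.29 ± 0.12 (adjusted p = 0.16), and the interaction was 0.10 with a 95% interval of −0.26 to 0.45, so that no dependence on Inf was detectable.

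Tnfrsf10b encodes the mouse receptor for TRAIL that has a death domain, and it was called in none of the 5 comparisons. It stood between 52.3 and 67.1 CPM over the 12 libraries, with 52.3 to 56.1 CPM in Inf and 57.6 to 67.1 in IL-4/13 + Inf. These 2 groups did not overlap, and the log2 fold change between them was 0.22 ± 0.06 (adjusted p = 0.010), under the fold change threshold of 0.25. It passed that threshold without Inf replicate 2 (0.25) or without IL-4/13 + Inf replicate 3 (0.28). Some 9.07% of its 50-base words occur in other genes.

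Mice have decoy receptors for TRAIL that lack a death domain, encoded by Tnfrsf22 and Tnfrsf23 on chromosome 7. Their neighbour Tnfrsf26 was grouped with the decoy receptors here. Tnfrsf23 stood at 35.6, 32.9, and 34.3 CPM in control, 40.8, 38.1, and 38.1 in IL-4/13, 58.4, 61.6, and 56.8 in Inf, and 72.0, 66.5, and 72.8 in IL-4/13 + Inf. None of the 4 conditions overlapped another. Inf raised it by 0.78 ± 0.06 (adjusted p = 1.2e-11), and IL-4/13 + Inf raised it by 0.26 ± 0.06 further (adjusted p = 0.0019), a value just past the threshold. That call was lost without Inf replicate 3, IL-4/13 + Inf replicate 1, or IL-4/13 + Inf replicate 3, where the log2 fold change was 0.23, 0.24, and 0.23, and with a stricter filter, where it was 0.24.

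Tnfrsf22 stood at 25.5, 26.1, and 24.2 CPM in control, 29.8, 27.6, and 28.4 in IL-4/13, 26.3, 28.4, and 27.9 in Inf, and 31.1, 36.1, and 37.9 in IL-4/13 + Inf. The IL-4/13 + Inf libraries lay above all others. In contrast to Tnfrsf23, it gave no call with Inf alone, with a log2 fold change of 0.13 ± 0.08 (adjusted p = 0.21), and whether the 2 genes differed in their response to Inf was not tested. Adding IL-4/13 to Inf raised Tnfrsf22 by 0.34 ± 0.08 (adjusted p = 0.0015), and this call held whichever library was left out. The 2 genes share sequence, as 27.7% of the 50-base words of Tnfrsf22 and 21.8% of those of Tnfrsf23 occur in other transcripts, mainly each other's. The counting rules for such reads are not given in the sources used here, so the split between the 2 genes is uncertain. Tnfrsf26 and the gene of osteoprotegerin, Tnfrsf11b, a decoy for RANK ligand, did not pass the filter, with at most 14 and 4 counts in a library.

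Per length of exon, taken over the basic GENCODE annotation, Tnfrsf12a was the most abundant of the 44 genes in each of the 4 conditions, at 195 CPM per kb in control and 143 in Inf, followed in control by Ltbr at 63.3 CPM per kb. Over the full annotation, an alternative chosen after the data were seen, these values were 107, 78.7, and 56.7, in the same order. The order behind these 2 genes depends on the annotation, and Tnfrsf23 went from 23.2 to 8.64 CPM per kb in control. With Inf, Fas rose from 6.41 to 68.9 CPM per kb, next to Ltbr at 71. Traf1 went from 0.29 to 2.6 CPM per kb, or from 0.13 to 1.19 over the full annotation, and Tnfrsf9 from 0.19 to 1.5, which left both well below the leading receptors. The highest tested ligand with Inf, Tnfsf12, was at 8.76 CPM per kb.

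Tnfrsf12a encodes Fn14, the receptor of TWEAK. It stood at 207, 197, and 217 CPM in control, 194, 203, and 193 in IL-4/13, 148, 142, and 166 in Inf, and 183, 183, and 179 in IL-4/13 + Inf. The Inf libraries were the lowest, and the IL-4/13 + Inf libraries stood between them and the other conditions without overlap. Inf lowered Tnfrsf12a by a log2 fold change of −0.45 ± 0.05 (adjusted p = 1.6e-08). Adding IL-4/13 to Inf raised it by 0.26 ± 0.05 (adjusted p = 0.00031), whereas IL-4/13 alone gave −0.07 ± 0.05 (adjusted p = 0.47). The interaction between the 2 treatments was 0.33 ± 0.07 (adjusted p = 0.0050), and this call held with each of the 12 libraries left out. The call for IL-4/13 + Inf against Inf rests close to the threshold, and the log2 fold change fell to 0.24 without Inf replicate 1, 0.21 without Inf replicate 2, and 0.24 with a stricter filter.

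**Figure D2:**
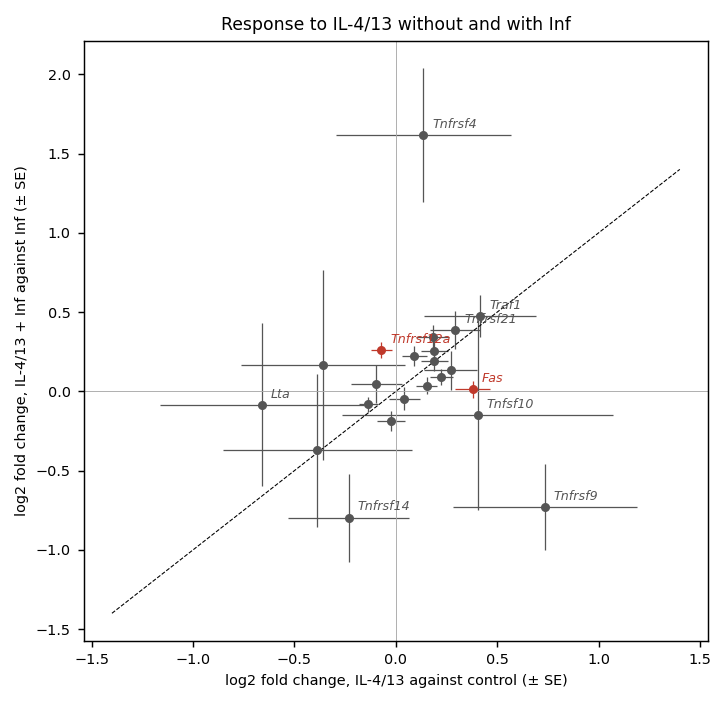
Log2 fold change of IL-4/13 against control (horizontal axis) and of IL-4/13 + Inf against Inf (vertical axis), with SE, for the 22 tested genes other than Tnfsf15, which had no count in control. On the dashed line the response to IL-4/13 is the same with and without Inf, and the genes in red, Tnfrsf12a above the line and Fas below it, are those for which the interaction was called.

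Tnfrsf4 encodes OX40, a costimulatory receptor best known from T cells, and it was low throughout. Its level was 0.86, 0.93, and 0.72 CPM in control, 0.91, 1.23, and 0.59 in IL-4/13, 0.47, 0.88, and 0.12 in Inf, and 1.69, 1.74, and 1.28 in IL-4/13 + Inf. The IL-4/13 + Inf libraries, at 34, 31, and 19 counts, lay above all other libraries, and Inf replicate 3 was the lowest with 2 counts. IL-4/13 + Inf raised Tnfrsf4 3.07-fold over Inf, a log2 fold change of 1.62 ± 0.42 (adjusted p = 0.0052), and the call held with each library left out, over log2 fold changes of 1.18 without Inf replicate 3 to 2.44 without Inf replicate 2. Against control the value was 0.91 ± 0.39 (adjusted p = 0.074), which passed without Inf replicate 3 (adjusted p = 0.047). Inf alone gave −0.70 ± 0.47 (adjusted p = 0.24), or −1.52 without Inf replicate 2 (adjusted p = 0.036). The interaction was 1.48 ± 0.61 and did not pass the test (adjusted p = 0.23).

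Tnfrsf9 encodes 4-1BB, another costimulatory receptor. It stood at 0.40, 0.81, and 0.18 CPM in control, 1.18, 0.45, and 0.59 in IL-4/13, 3.92, 3.51, and 3.76 in Inf, and 2.43, 2.36, and 1.89 in IL-4/13 + Inf. The Inf libraries were the highest, and the IL-4/13 + Inf libraries lay between them and the libraries without Inf. Inf raised Tnfrsf9 8.01-fold, a log2 fold change of 3.00 ± 0.35 (adjusted p = 3.3e-08), and IL-4/13 + Inf raised it 4.83-fold, or 2.27 ± 0.38 (adjusted p = 1.2e-05). Without control replicate 2 these folds were 12.5 and 7.52. Between these 2 conditions the log2 fold change was −0.73 ± 0.27, which did not pass the test (adjusted p = 0.053). It passed with no filter on low counts (adjusted p = 0.043), where the 6 libraries compared were fitted alone (0.020), and without control replicate 2 (0.038), control replicate 3 (0.037), IL-4/13 replicate 1 (0.043), or IL-4/13 replicate 2 (0.049). The interaction was −1.46 ± 0.53 (adjusted p = 0.15), or −2.10 without control replicate 2 (adjusted p = 0.043).

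Tnfrsf14 encodes HVEM, a receptor of LIGHT. It stood at 2.11, 1.86, and 2.16 CPM in control, 1.66, 1.94, and 1.62 in IL-4/13, 4.79, 2.14, and 2.49 in Inf, and 2.18, 1.41, and 1.69 in IL-4/13 + Inf. Inf replicate 1 lay far above the other 2 Inf libraries, and the Inf and IL-4/13 + Inf groups overlapped. The log2 fold change of IL-4/13 + Inf against Inf was −0.80 ± 0.28 (adjusted p = 0.037), but without Inf replicate 1 it was −0.38 (adjusted p = 0.40). The call was also lost without IL-4/13 + Inf replicate 2 (−0.65, adjusted p = 0.15) or replicate 3 (−0.77, adjusted p = 0.087), and where the libraries compared were fitted alone (adjusted p = 0.075). Some 5.78% of its 50-base words occur in other genes. With Inf against control the value was 0.59 ± 0.27 (adjusted p = 0.086), and it passed without Inf replicate 2 (0.82, adjusted p = 0.021) or Inf replicate 3 (0.72, adjusted p = 0.048).

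Ltbr, the lymphotoxin-β receptor, was called in no comparison. It stood between 118 and 152 CPM over the 12 libraries, and with Inf its log2 fold change of 0.16 ± 0.05 passed the test (adjusted p = 0.0064) but not the fold change threshold. Tnfrsf18, which encodes GITR and lies next to Tnfrsf4 in the genome, stood between 0.34 and 1.14 CPM and was called in no comparison. Its log2 fold change of IL-4/13 + Inf against Inf was −0.37 with a 95% interval of −1.36 to 0.62, against 0.75 to 2.48 for Tnfrsf4, although whether the 2 genes differed was not tested.

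Of the 14 other receptors, 8 did not pass the filter. Among these, 2, Cd40 and Tnfrsf8, had counts in every library with Inf and in none without it. The share of all genes below the filter with this pattern was not counted, so the 2 cannot be set against it. Cd40, through which helper T cells activate B cells and fibroblasts, had 0 counts in the 6 libraries without Inf, 18, 5, and 14 in Inf, and 7, 4, and 5 in IL-4/13 + Inf. Every library with Inf was above the floor of 3 counts, and against that floor Cd40 was at least 4.26-fold higher with Inf and at least 1.69-fold higher with IL-4/13 + Inf. Without the filter, its log2 fold change of IL-4/13 + Inf against Inf was −1.27 ± 0.67 (adjusted p = 0.28). Tnfrsf8, which encodes CD30, had 0 counts without Inf, 5, 12, and 5 in Inf, and 11, 6, and 24 in IL-4/13 + Inf. Against the floor it was at least 2.27-fold higher with Inf and at least 4.66-fold higher with IL-4/13 + Inf, or at least 2.46-fold without IL-4/13 + Inf replicate 3, and between these conditions it gave 0.96 ± 0.61 without the filter (adjusted p = 0.43). The rest, namely the RANK gene Tnfrsf11a, the B cell receptors Tnfrsf13b, Tnfrsf13c, and Tnfrsf17, Tnfrsf19, and Cd27, had at most 6 counts in any library.

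Set side by side per length of exon, the ligand genes of the most abundant receptors were low or without reads. Fas reached 69.4 CPM per kb with IL-4/13 + Inf, where Fasl had no read. Tnfrsf12a stood at 195 CPM per kb in control and its ligand gene Tnfsf12 at 7.81, a count that is uncertain because of the readthrough transcript. For 4-1BB the order was the other way round. The receptor gene Tnfrsf9 stood at 1.5 CPM per kb in Inf and the ligand gene Tnfsf9 at 6.83. Both were called higher with Inf. The call for Tnfsf9 held in 3 of 7 other fits and in 8 of the 12 fits that left out a library. Tnfrsf9 passed the filter only through libraries with Inf. Tnfrsf4 stood at 1.52 CPM per kb in IL-4/13 + Inf, where its ligand gene Tnfsf4 had 0 counts.

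**Figure D3:**
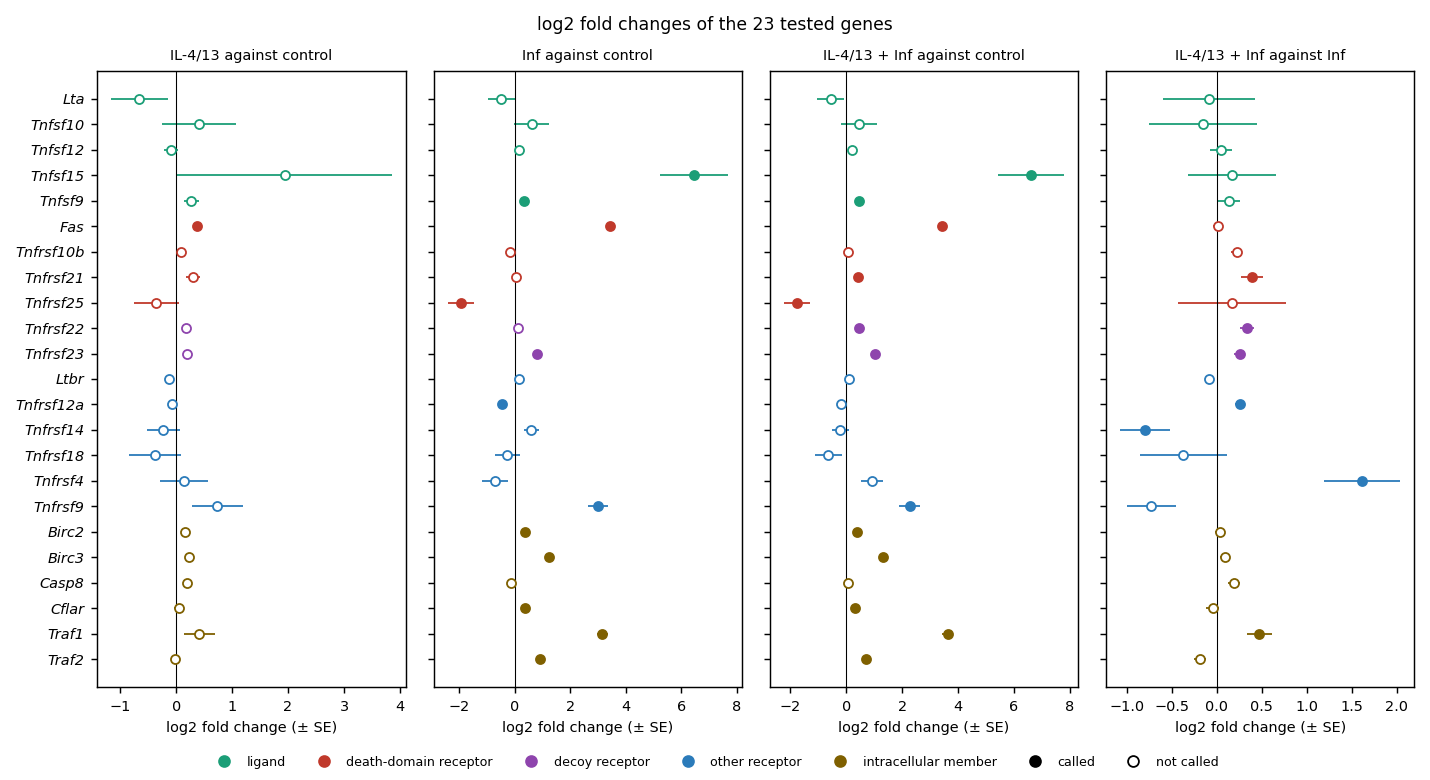
Log2 fold change with SE of each of the 23 tested genes in 4 comparisons, coloured by role, with filled points for called genes and open points for those not called; each panel has its own horizontal scale. Against control, Fas, Traf1, Tnfrsf9, and Tnfsf15 lay farthest to the right with Inf, while Tnfrsf4 lay farthest to the right for IL-4/13 + Inf against Inf. The position of Tnfsf15 against control depends on its 0 counts there and is no measured size.

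Among the intracellular genes, all 6 were tested and 5 rose with Inf. Traf1, an adaptor that binds TRAF2 and is itself a known NF-κB target, stood at 0.86, 1.61, and 1.08 CPM in control, 1.71, 1.75, and 1.18 in IL-4/13, 10.9, 9.40, and 11.3 in Inf, and 12.5, 15.3, and 16.1 in IL-4/13 + Inf. Neither group with Inf overlapped any other. Inf raised Traf1 8.88-fold, a log2 fold change of 3.15 ± 0.20 (adjusted p = 2.6e-14), and IL-4/13 + Inf raised it 12.3-fold over control (adjusted p = 3.2e-16). The step from Inf to IL-4/13 + Inf was 0.47 ± 0.13 (adjusted p = 0.0098). This call was lost without Inf replicate 2 (0.40, adjusted p = 0.058), IL-4/13 + Inf replicate 2 (0.44, adjusted p = 0.058), or IL-4/13 + Inf replicate 3 (0.40, adjusted p = 0.063). IL-4/13 alone gave 0.41 ± 0.27 (adjusted p = 0.43), and the interaction was 0.06 with a 95% interval of −0.59 to 0.71.

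Traf2, the adaptor through which TNF receptors reach the cIAP proteins, stood at 39.4, 35.0, and 42.0 CPM in control, 36.3, 37.0, and 41.5 in IL-4/13, 75.3, 70.9, and 71.4 in Inf, and 63.6, 63.9, and 63.8 in IL-4/13 + Inf. The 6 libraries with Inf lay above the 6 without it, and those with Inf alone were the highest. Inf raised Traf2 by 0.90 ± 0.07 (adjusted p = 1.2e-12). Between IL-4/13 + Inf and Inf the log2 fold change was −0.18 ± 0.06, which passed the test (adjusted p = 0.034) but not the fold change threshold, whereas for Traf1 the same comparison gave a rise.

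Birc2 and Birc3 are neighbouring genes on chromosome 9. Birc3 stood at 84.3, 75.2, and 77.2 CPM in control, 96.1, 87.7, and 92.8 in IL-4/13, 199, 182, and 178 in Inf, and 198, 194, and 203 in IL-4/13 + Inf. Birc2 stood at 83.2, 76.5, and 80.7 CPM in control, 91.7, 86.7, and 88.9 in IL-4/13, 105, 105, and 98.0 in Inf, and 108, 101, and 107 in IL-4/13 + Inf. For both genes the 3 IL-4/13 libraries lay above the control libraries and below the libraries with Inf. Inf raised Birc3 by 1.24 ± 0.05 (adjusted p = 2.5e-18) and Birc2 by 0.36 ± 0.05 (adjusted p = 1.4e-06). IL-4/13 alone gave 0.22 ± 0.05 for Birc3, which passed the test (adjusted p = 0.0074) but not the fold change threshold. It passed both without control replicate 1 (0.28) or IL-4/13 replicate 2 (0.26). Of their 50-base words, 7.34% for Birc3 and 2.07% for Birc2 occur in other genes.

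Cflar and Casp8, neighbours on chromosome 1, encode c-FLIP and caspase-8, which compete for the same death receptor complex. Cflar stood at 53.9, 47.4, and 53.6 CPM in control, 52.8, 53.9, and 53.0 in IL-4/13, 69.4, 72.3, and 57.2 in Inf, and 62.1, 61.4, and 69.8 in IL-4/13 + Inf. The libraries with Inf were all higher than those without it, and Inf replicate 3 was the lowest of them. Inf raised Cflar by 0.36 ± 0.07 (adjusted p = 0.00026) and IL-4/13 + Inf by 0.32 ± 0.07 (adjusted p = 0.0014). Some 11.7% of its 50-base words occur in other genes. Casp8 was called in no comparison. Its libraries stood between 34.7 and 47.4 CPM, and its log2 fold change was −0.12 ± 0.07 with Inf (adjusted p = 0.16) and 0.19 ± 0.07 for IL-4/13 + Inf against Inf (adjusted p = 0.036), the latter under the fold change threshold.

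The rule left out 10 genes of the superfamily that carry other symbols, of which 5 were tested. Of the 2 receptors for TNF itself, Tnfrsf1b, which encodes TNFR2, rose with Inf from 49.4 ± 1.46 to 116.5 ± 3.18 CPM, a log2 fold change of 1.24 ± 0.05 (adjusted p = 7.1e-19). Tnfrsf1a, which encodes TNFR1, gave 0.15 ± 0.05 (adjusted p = 0.0090), under the fold change threshold, and the difference between the 2 genes was not tested. Inf lowered Eda2r, a receptor of ectodysplasin, by −0.32 ± 0.07 (adjusted p = 0.00051) and Relt by −0.52 ± 0.15 (adjusted p = 0.0052), and Eda itself was not called. Eda2r rose by 0.25 when IL-4/13 was added to Inf, a call that was lost without Inf replicate 1, Inf replicate 3, or IL-4/13 + Inf replicate 2. Cd40lg, Cd70, Edaradd, Edar, and Ngfr did not pass the filter, with 0, 0, 0, 1, and at most 4 counts in a library.

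Further along the pathway, 30 genes of receptor adaptors and of the ubiquitin machinery were all tested. Inf raised 6 of them and lowered 3, Map3k14 (−0.79), Traf5 (−0.60), and Rbck1 (−0.33), a share of 30% against 31.6% of all tested genes, and their median log2 fold change was 0.09. Past a log2 fold change of 1 were Tnfaip3 at 2.78 ± 0.08, which encodes the deubiquitinase A20, the kinase gene Map3k8 at 2.63 ± 0.12, Tnip1, which encodes a partner of A20, at 1.86 ± 0.05, and Traf3ip2, which encodes the IL-17 receptor adaptor Act1, at 1.01 ± 0.10. Adding IL-4/13 to Inf raised 3 and lowered 1, or 13.3% against 14.6% of all tested genes. The 3 that rose were Map3k8 (0.37), Traf3 (0.32, lost without Inf replicate 3), and Chuk (0.28, lost without IL-4/13 + Inf replicate 2), and Tnfaip3 fell by 0.42. IL-4/13 alone raised Map3k8 (0.86), Map3k14 (0.66), and Chuk (0.26) and lowered Tradd (−0.26), a count of 4 or 13.3% against 5.35% of all tested genes, that fell to 2 without control replicate 1 or 3 or IL-4/13 replicate 1 or 3. Where a change was below 1 on the log2 scale, the genes of this list were named after their values were seen. The list itself was chosen with earlier results of these data known, so its shares are no separate support.

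Of 35 genes of death effectors and the BCL2 family, 30 were tested, and Inf raised 11 and lowered 2, Bcl2 (−0.77) and Birc5 (−0.30, lost without control replicate 2), a share of 43.3% against 31.6% of all tested genes, with a median log2 fold change of 0.07. Past a log2 fold change of 1 were Zbp1, which encodes a nucleic acid sensor that can start necroptosis, at 2.45 ± 0.23 (adjusted p = 1.1e-05) and Gsdmd, which encodes the pore-forming protein of pyroptosis, at 1.10 ± 0.09 (adjusted p = 1.6e-11). Adding IL-4/13 to Inf raised Htra2 (0.52) and lowered Bmf (−0.54). IL-4/13 alone raised Casp6 (0.44) and Htra2 (0.28) and lowered Bbc3 (−0.29) and Gsdme (−0.30), 13.3% against 5.35% of all tested genes, and this count of 4 fell to 1 without IL-4/13 replicate 2. The calls of Bbc3 and Gsdme held in 4 and 3 of the 12 fits that left out a library, and both were lost with no filter, with the replicate block, and by DESeq2. Genes of this list with changes below 1 were likewise named after their values were seen. Against these lists, the share of tested genes called with Inf was 52.2% for the 23 genes and 31.6% for all genes, and no test of the difference was made. The 52.2% includes Tnfsf15, Tnfrsf9, and Tnfrsf25, which were tested only because of the groups in which they were high. The contrast of these shares is therefore no separate support. Both lists were chosen with earlier results of these data known, so their shares against all tested genes are no separate support either.

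**Figure D4:**
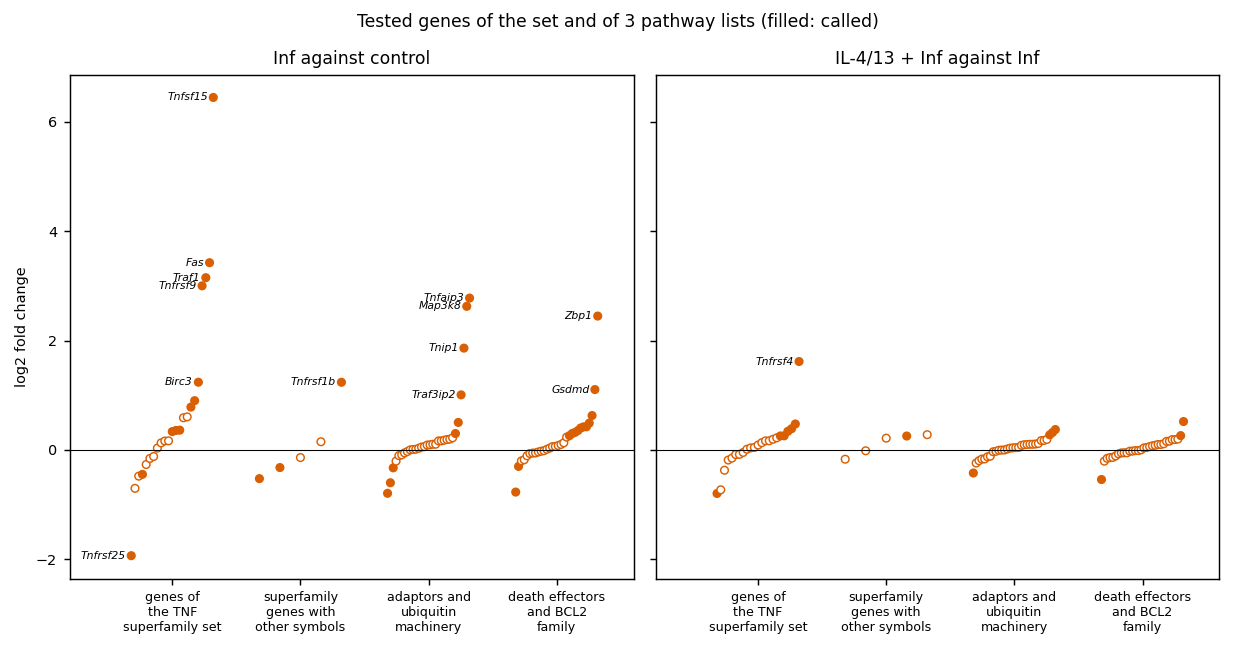
Log2 fold change of every tested gene of the TNF superfamily set and of 3 pathway lists, ordered by value within each list, with Inf against control (left) and with IL-4/13 + Inf against Inf (right). Filled points were called, and called genes past a log2 fold change of 1 are named; with Inf the set reaches 3.42 for Fas and 6.45 for Tnfsf15, whose value rests on 0 counts in control, and with IL-4/13 added to Inf only Tnfrsf4 is past 1.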

How the data were processed

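RNA was sequenced from 12 libraries of 3T3-L1 cells, 3 in each of 4 conditions, grouped by GEO's labels. The libraries were stranded and made from polyadenylated RNA, and the values the authors deposited are raw, unnormalized counts for each gene. The submitters' processing notes name STAR, featureCounts, and GRCm39, with no role given, and the annotation is not given in the sources used here. Doses and time come from the study's paper.

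Genes were filtered with filterByExpr (minimum count 10, minimum total count 15), which left 14810, scaled by TMM factors, and fitted in 1 robust quasi-likelihood model of all 12 libraries with edgeR 4.0.16 (R 4.3.3, limma 3.58.1). Benjamini-Hochberg adjustment was made within each comparison over all tested genes. The study's methods name DESeq2 for these libraries, and it was used here as an alternative (version 1.42.0). The thresholds, an adjusted p of 0.05 and a log2 fold change of 0.25, are those the study states for its pseudobulk data. The interaction is the log2 response to IL-4/13 with Inf minus that without Inf. A fold against a group with no count was computed against 3 counts per library. Tables were made with pandas 2.3.3 and numpy 2.4.6 and figures with matplotlib 3.10.9, in Python 3.11.15.

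The genes and lists were chosen with earlier results of these data known, and no list was tested as a set. A result for 1 gene of the death effector list is not reported here. Each tested gene is named, those called in a comparison are given per library, and genes of the other lists are named where called beyond a log2 fold change of 1, or where a list holds 10 or fewer; others were named after their values were seen, as said beside them. Exon lengths and shared 50-base words came from GENCODE M21 (GRCm38), and gene order and promoters from RefSeq. In simulated data where 200 genes were given a log2 fold change of 1, edgeR recovered 81.5% for IL-4/13 against control among 14539 genes tested, with 10 false calls, and 76% for the interaction among 14532, with 7 false calls. No smaller change was simulated, so recovery of changes below 1, such as many described here, was not measured. Alternatives were a replicate block, DESeq2, its size factors, scaling by library size only, testing without a filter, a stricter filter (mean of 50 counts), separate fits of the libraries compared, thresholds of 0 and 1, and each library left out in turn.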

Additional observations from a re-analysis of the deposited data

Results flagged for a closer look

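Among the 23 genes and the 3 pathway lists, 6 genes were called for the interaction term of the fit (edgeR's quasi-likelihood test, adjusted over all tested genes). Called were 8.7% of the 23 genes, 10% of the adaptor list, 3.33% of the death effector list, and 0% of the superfamily genes with other symbols. Over all tested genes the share was 3.11%. The lists were chosen with earlier results of these data known, so these shares are no separate support. Among the TNF superfamily genes the term was 0.33 for Tnfrsf12a and −0.37 for Fas, both described above. The call for Fas held in only 4 of the 12 fits that left out a library. Among the adaptors and the ubiquitin machinery, Tnfaip3 had a term of −0.63 (adjusted p = 0.0016), with 12.3 CPM in control and 84.0 and 62.7 in Inf and IL-4/13 + Inf. Map3k14, which encodes the NF-κB-inducing kinase, had −0.49 (adjusted p = 0.0088), with 36.0 and 57.1 CPM without Inf and 20.8 and 23.5 CPM with Inf. Both calls held with each library left out. Traf4 had 0.32 (adjusted p = 0.019), which was lost in 5 of the 12 fits that left out a library. Gsdme, which encodes a pore-forming protein of the gasdermin family, had 0.46 (adjusted p = 0.045), which held in 1 of the 12.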

How the results depend on the processing

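The count of called genes among the 23 moved most with the log2 fold change threshold. For IL-4/13 against control it was 1, or 2 at a threshold of 0 and 0 at a threshold of 1. At a threshold of 1 it was 6 for Inf against control (from 12), 7 for IL-4/13 + Inf against control (from 13), 1 for IL-4/13 + Inf against Inf (from 7), and 0 for the interaction (from 2). A filter at a mean of 50 counts left 3 calls for IL-4/13 + Inf against Inf, as it removes Tnfrsf4 and Tnfrsf14, while Tnfrsf12a and Tnfrsf23 fell under the fold change threshold. Leaving out 1 library gave 1 to 2, 11 to 14, 13 to 15, 4 to 8, and 1 to 2 calls in the same order of comparisons, and the filter then keeps more genes because the smallest group has 2 libraries. The 4 calls for IL-4/13 + Inf against Inf came without Inf replicate 1 or IL-4/13 + Inf replicate 3. The single call of the interaction came without control replicate 1 or 3, IL-4/13 replicate 1 or 3, Inf replicate 3, or IL-4/13 + Inf replicate 2 or 3. The replicate numbers did not pair the libraries, as 0 of 18 same-numbered pairs had a correlation of their deviations over 0.1 (range −0.15 to 0.054) and 0 libraries correlated best with their own number. With the replicate block the counts were 1, 12, 13, 7, and 2. Of single-gene results with 1 library left out, 1339 kept their side of the threshold, 27 lost a call, and 14 gained one, and under the other settings these numbers were 700, 7, and 3, with no called value changing sign. Under the other scalings, the median log2 fold change over all tested genes stayed within 0.029 of 0. The fit of only the libraries compared does not apply to the interaction. Genes at a few counts per library, such as Cd40, Tnfrsf8, and Tnf, are limited by depth.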
